A study of Rattus norvegicus with 15 samples.

Results

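The genes described here encode collagens and other structural proteins of the extracellular matrix, with the enzymes that cross-link them. They are 35 named genes out of 14233 genes named by at least 1 probe set of the Affymetrix rat arrays. They were listed by name and role, with no threshold on a measured value, though earlier results of these data were known when the list was made. Of the 35, 34 were found by the symbol in the deposited table and 1, Vcan, by its Entrez identifier, because the table carries an older symbol for it. Each gene was represented by the probe set with the highest mean over the 15 arrays. A probe set is a group of short probes against a single transcript, and its value here is a log2 intensity.

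The groups compare mammary glands after a past pregnancy, after a past course of hormones and after neither. All 15 animals were virgin female Lewis rats, 3 months old at assignment, with 5 in each group. The control group carried sham capsules holding cellulose and had neither exposure. The pregnancy group carried the same sham capsules, was pregnant to term for 21 to 23 days, and its pups were removed 4 to 6 hours after birth, to keep them from suckling. The hormone group carried 2 silastic capsules for 21 days, filled with 100 µg of ethynyl estradiol, a synthetic estrogen, and with 30 mg of megestrol acetate, a synthetic progestin. A rest of about 49 days followed before death at metestrus, when RNA was taken from the left inguinal gland. Each array is labelled as a separate rat of its group, the labels name no litter or hybridization batch, and an exposure is modelled only at this single time of rest.

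Extracellular matrix surrounds the epithelial ducts of the mammary gland and fills its stroma. Fibrillar collagens assemble as triple helices into fibrils, whose width is set partly by type V collagen and by small leucine-rich proteoglycans, and which lysyl oxidases cross-link. Type IV collagen and laminins form the basement membrane under the epithelium and around vessels and fat cells, and type VI collagen forms beaded filaments near that boundary. Fibroblasts are the main source of fibrillar collagen in the gland, while epithelial, endothelial and fat cells also make basement membrane. In whole gland RNA, fewer cells of a type and less RNA per cell cannot be told apart.

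The promoters of 4 members are shown because the results turn on them. Col6a3 is the member that passed the test, Col5a2 and Col1a2 are the fibrillar chains with the smallest p-values after pregnancy, and Col4a1 starts opposite its partner Col4a2, with which it varied closely. Each window runs 5′ to 3′ on the gene's strand, from 250 bases before the RefSeq start to 50 bases from it on, in build GRCr8. The windows lie at chr9:98886909-98887208 on the minus strand for Col6a3, chr9:55090102-55090401 on the minus strand for Col5a2, chr4:33518307-33518606 on the plus strand for Col1a2, and chr16:84885347-84885646 on the plus strand for Col4a1. Capitals mark 3 motifs on either strand: CCAAT or its reverse complement ATTGG, which NF-Y can bind, then GGGCGG or its complement CCGCCC, which Sp1 can bind, and the TATA box TATAAA or its complement TTTATA. No marked motifs overlapped in these 4 windows.
Col6a3: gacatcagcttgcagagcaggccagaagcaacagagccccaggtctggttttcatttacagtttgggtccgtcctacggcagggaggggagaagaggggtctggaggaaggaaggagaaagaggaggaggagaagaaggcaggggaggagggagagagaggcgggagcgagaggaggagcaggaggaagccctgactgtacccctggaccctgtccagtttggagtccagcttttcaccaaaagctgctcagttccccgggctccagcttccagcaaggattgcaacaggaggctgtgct
Col5a2: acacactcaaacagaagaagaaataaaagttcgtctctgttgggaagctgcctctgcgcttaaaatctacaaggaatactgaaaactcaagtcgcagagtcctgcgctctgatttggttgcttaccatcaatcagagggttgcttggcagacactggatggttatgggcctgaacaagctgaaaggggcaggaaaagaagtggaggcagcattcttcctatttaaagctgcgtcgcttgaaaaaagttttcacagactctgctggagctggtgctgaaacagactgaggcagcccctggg
Col1a2: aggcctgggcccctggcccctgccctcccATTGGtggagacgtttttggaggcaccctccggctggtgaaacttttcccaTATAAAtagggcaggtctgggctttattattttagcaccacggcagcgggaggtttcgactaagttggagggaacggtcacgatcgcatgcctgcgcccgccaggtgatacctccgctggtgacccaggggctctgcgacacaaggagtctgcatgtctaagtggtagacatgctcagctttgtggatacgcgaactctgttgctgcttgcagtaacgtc
Col4a1: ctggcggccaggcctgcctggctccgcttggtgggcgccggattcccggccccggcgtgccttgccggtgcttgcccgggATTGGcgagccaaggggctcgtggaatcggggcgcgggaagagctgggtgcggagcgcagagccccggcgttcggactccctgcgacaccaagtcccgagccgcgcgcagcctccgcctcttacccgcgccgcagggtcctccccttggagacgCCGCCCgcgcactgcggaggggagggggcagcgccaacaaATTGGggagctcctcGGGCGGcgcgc

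The RefSeq table held 23 windows for 22 of the members. CCAAT was in 8 of the 23, against 37.49% of 33469 windows of all rat genes, and GGGCGG was in 12 of the 23, against 33.06%. Both counts include Col4a1 and Col4a2, whose windows overlap, and the 12 include both windows of Vcan, so the windows are not all independent. TATAAA was in 3 of the 23, against 14.22%. The Col6a3 and Col5a2 windows held none of the 3 motifs, the Col1a2 window held 1 CCAAT on the reverse strand and 1 TATAAA, and the Col4a1 window held 2 CCAAT and 2 GGGCGG. The Col4a1 and Col4a2 windows lie on opposite strands and share 176 bases, with 76 bases between the 2 starts. A motif match is a description of letters and not a binding site.

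The gland's own markers were measured before the groups were compared. All 13 luminal epithelium markers and all 10 basal myoepithelium markers on the arrays were called present on every array. Present is the detection call of the MAS5 algorithm, which covered 65.3% to 68.4% of probe sets per array. Of the 35 matrix genes, 33 were present on all 15 arrays. Tnc was present on 13, with both absent calls in the pregnancy group, and the brighter Fbn2 probe set, which is used here, on 3. The summed markers of lymph node, given as the mean log2 deviation of 17 genes from their mean over the arrays, stood above 0.75 on control arrays 1, 4 and 5 and on pregnancy array 3. The 15 skeletal muscle markers stood above 1 on pregnancy arrays 7 and 9 and on hormone array 4. These 7 arrays stand apart. The Col6a3 result and the counts over the 35 members in the pairwise comparisons are also given without them, and other members are given on all arrays only.

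After pregnancy, Col6a3 was the matrix gene that fell past the threshold, by 1.43-fold. Most of the other members also had lower estimates: 30 of the 35 were lower than in control and 5 were higher. The median difference over the members was −0.30 on the log2 scale, against 0.02 over all 31042 probe sets, of which 45.3% had a lower estimate. Over the brightest probe set of each of the 14233 named genes, chosen as for the members, the median was 0.003 and 49.3% were lower. Differences were tested with limma, a linear model that shares the estimate of spread across probe sets, and p-values were adjusted by Benjamini-Hochberg over all 31042. The 1 member called stands against 61 probe sets, or 0.197%, called at an adjusted p under 0.05 over the whole array. At an unadjusted p under 0.05, 16 members were lower and 0 were higher, against 10.6% and 11.3% of all probe sets, and the list as a whole was not tested. Of the brightest probe sets of the 14233 named genes, 1708 were lower and 1394 higher at that p. Without the lymph-rich arrays the median was −0.31 with 12 members lower at that p, and without the muscle-rich arrays −0.24 with 11. The first fit lacked control arrays 1, 4 and 5 and pregnancy array 3. The second lacked pregnancy arrays 7 and 9 and hormone array 4. The share of all probe sets in these fits is not given, and a change in count cannot be told apart from lost precision. In the authors' deposited table, which comes from a separate fit, 2 members were called, Col6a3 with an adjusted p of 0.0397 and Tnc with 0.0411, against 0.966% of probe sets.

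**Figure D1:**
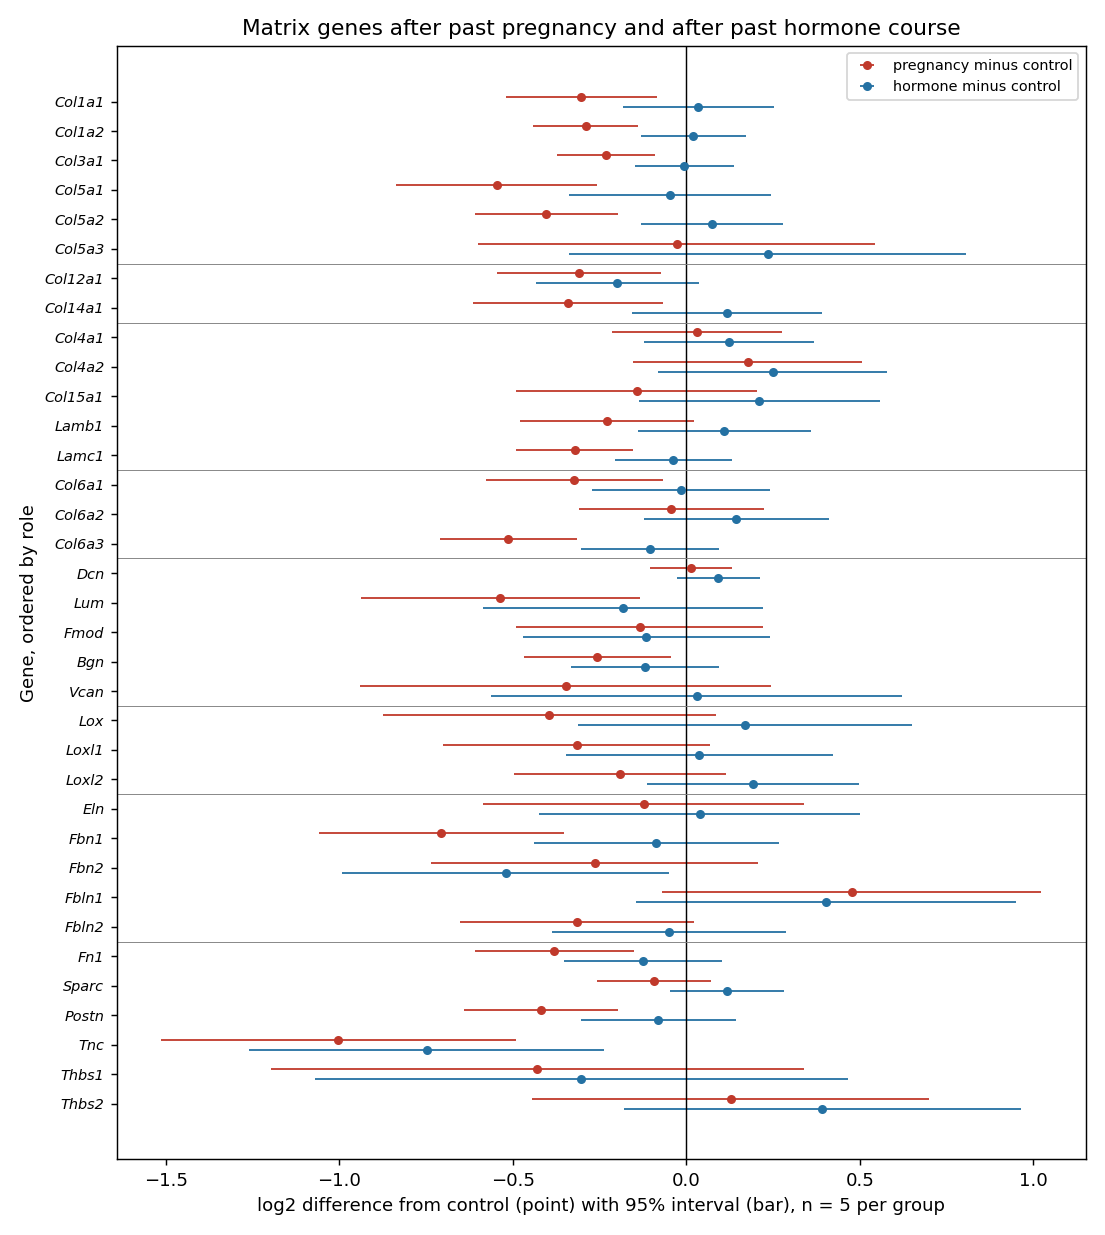
Log2 difference of each member for pregnancy minus control and hormone minus control, with 95% intervals from limma, grouped by role. Values left of 0 are lower than in the control group; 30 of 35 members lie left of 0 for pregnancy and 16 of 35 for hormone.

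Col6a3 read 12.82, 12.87, 12.76, 12.88 and 12.80 on the control arrays, 12.50, 12.50, 12.23, 12.31 and 12.03 on the pregnancy arrays, and 12.72, 12.84, 12.84, 12.75 and 12.46 on the hormone arrays. Values are listed in the order of replicates 1, 2, 4, 5 and 6 for control, 1, 2, 3, 7 and 9 for pregnancy, and 1 to 5 for hormone. Every pregnancy array lay below every control array, with a gap of 0.25, while hormone array 5 lay among the pregnancy arrays. Col6a3 encodes the largest chain of type VI collagen, which assembles with the chains of Col6a1 and Col6a2. The difference from control was −0.51 on the log2 scale (95% interval −0.71 to −0.32, SE 0.09, limma adjusted p = 0.0489). The call sat at the threshold: it held in 4 of 15 fits that each left out 1 array and in 4 of 12 other alternatives, with differences from −0.56 to −0.28. It was lost without control array 1, 4 or 6, pregnancy array 1, 3, 7 or 9, or hormone array 1, 2, 3 or 4, at adjusted p from 0.0547 to 0.129. Without the muscle-rich arrays the difference was −0.42 (adjusted p = 0.555), and without the lymph-rich arrays −0.50 (adjusted p = 0.201). Both fits had fewer rats, so the lost call cannot be told apart from lost precision. A second, dimmer Col6a3 probe set gave −0.05 (SE 0.22, adjusted p = 0.914).

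The other type VI chains did not pass. Col6a1 ranged from 11.90 to 12.38 in the control group, 11.44 to 12.03 in the pregnancy group and 11.82 to 12.30 in the hormone group, and its difference after pregnancy was −0.32 (SE 0.12, adjusted p = 0.150). Col6a2 ranged from 11.60 to 12.23 in the control group, 11.63 to 12.12 in the pregnancy group and 11.93 to 12.32 in the hormone group, at −0.04 (SE 0.12, adjusted p = 0.861). The groups overlapped for both chains. All 3 chains had lower estimates after pregnancy, with a median of −0.32.

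**Figure D2:**
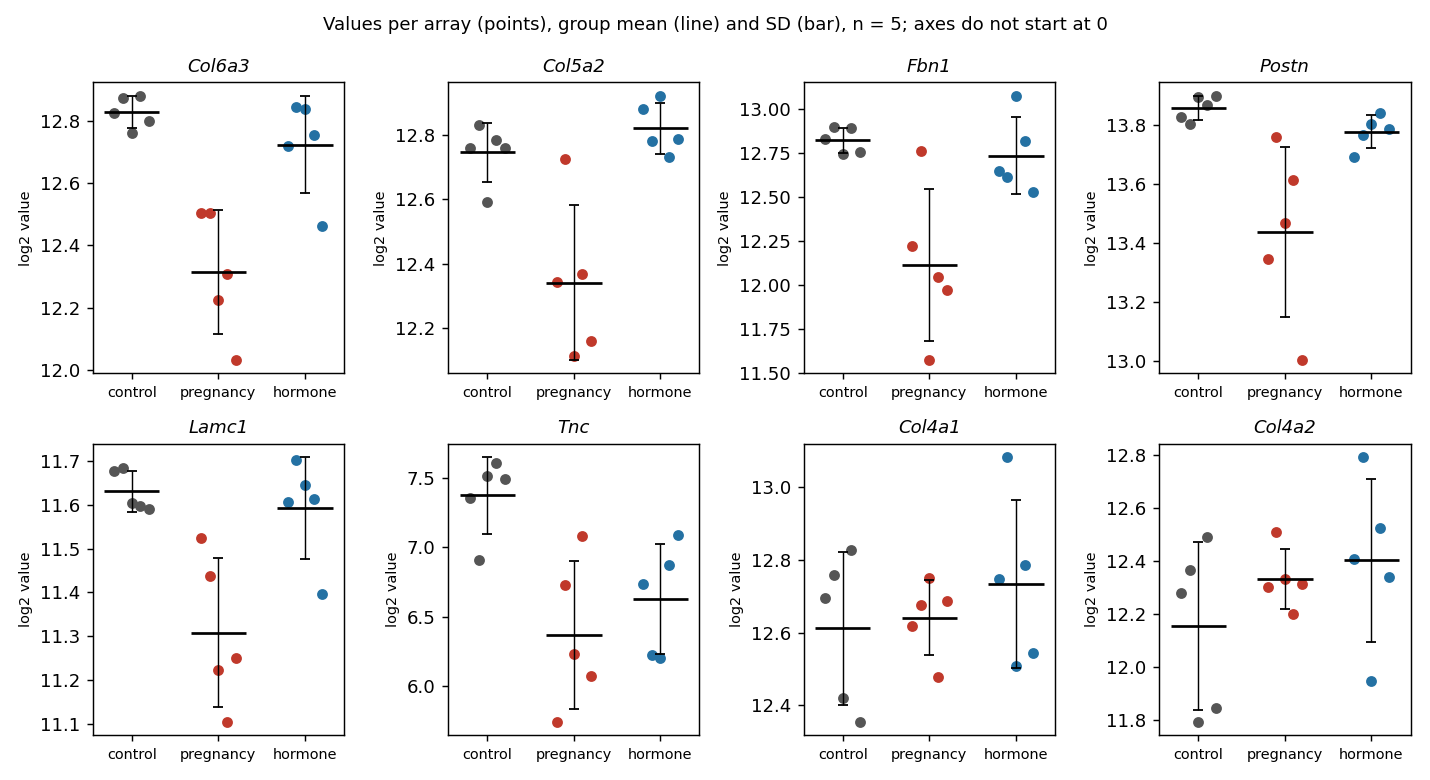
Log2 value of 8 members on each array (points), with the group mean (line) and SD (bar), n = 5 rats per group; the axes do not start at 0. Col6a3, Postn and Lamc1 lie lower on every pregnancy array than on any control array, pregnancy array 2 is the highest of its group for Col5a2 and Fbn1, and Col4a1 and Col4a2 overlap across the groups.

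All 6 fibrillar collagens had lower estimates after pregnancy, with a median of −0.30, and 0 of 6 passed the adjusted threshold. Col5a2 measured 12.76, 12.83, 12.59, 12.79 and 12.76 on the control arrays, 12.34, 12.73, 12.12, 12.37 and 12.16 on the pregnancy arrays, and 12.88, 12.78, 12.92, 12.73 and 12.79 on the hormone arrays. The type V chain it encodes helps to set fibril width. Pregnancy arrays 1, 3, 7 and 9 lay below every control array, and array 2 was among the controls. The difference was −0.40 (SE 0.10, adjusted p = 0.0710). Col5a1 ranged from 11.99 to 12.51 in the control group, 11.36 to 12.13 in the pregnancy group and 12.07 to 12.37 in the hormone group, and Col5a3 ranged from 10.19 to 11.60 in the control group, 10.33 to 11.59 in the pregnancy group and 10.89 to 11.61 in the hormone group. Col5a1, the partner of Col5a2 in the usual type V helix, was at −0.55 (SE 0.14, adjusted p = 0.0740), and Col5a3, a less widespread type V chain, at −0.03 (SE 0.27, adjusted p = 0.963).

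Type I collagen, the main fibril protein, has the chains of Col1a1 and Col1a2, and type III collagen is a helix of Col3a1 alone. Col1a1 ranged from 13.87 to 14.37 in the control group, 13.53 to 14.04 in the pregnancy group and 14.06 to 14.19 in the hormone group, and Col1a2 ranged from 13.88 to 14.14 in the control group, 13.55 to 13.94 in the pregnancy group and 13.96 to 14.09 in the hormone group. Col3a1 ranged from 14.15 to 14.31 in the control group, 13.84 to 14.20 in the pregnancy group and 14.17 to 14.26 in the hormone group. For each of the 3, pregnancy array 2 was the highest of its group and reached the control range. The differences were −0.30 (SE 0.10, adjusted p = 0.122) for Col1a1, −0.29 (SE 0.07, adjusted p = 0.0736) for Col1a2 and −0.23 (SE 0.07, adjusted p = 0.0951) for Col3a1. Both Col1a1 and Col3a1 had means above 14, as did Sparc and Dcn, and the brightest probe set on each array read between 14.45 and 14.57. Dimmer probe sets gave larger differences, −0.62 (SE 0.18, adjusted p = 0.101) for Col1a1 at a mean of 13.19 and −0.60 (SE 0.12, adjusted p = 0.0658) for Col1a2 at a mean of 13.39. Whether the bright probe sets were near saturation was not tested.

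Both fibril-associated collagens, which sit on the surface of fibrils, had lower estimates after pregnancy and neither passed. Col12a1 read 8.40, 8.40, 8.67, 8.69 and 8.46 on the control arrays, 8.36, 8.39, 8.12, 8.24 and 7.96 on the pregnancy arrays, and 8.30, 8.10, 8.15, 8.46 and 8.62 on the hormone arrays. Every pregnancy value was below every control value, but by only 0.0034 at the nearest, and the difference was −0.31 (SE 0.11, adjusted p = 0.139). Col14a1 ranged from 12.06 to 12.51 in the control group, 11.65 to 12.30 in the pregnancy group and 12.28 to 12.68 in the hormone group, with a difference of −0.34 (SE 0.13, adjusted p = 0.151). Its pregnancy and control arrays overlapped.

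On the probe sets used, the basement membrane genes were split. Lamc1 read 11.68, 11.68, 11.60, 11.60 and 11.59 on the control arrays, 11.52, 11.44, 11.22, 11.11 and 11.25 on the pregnancy arrays, and 11.61, 11.70, 11.65, 11.61 and 11.40 on the hormone arrays. Every pregnancy array was below every control array, and hormone array 5 was below the controls as well. Lamc1 encodes the laminin gamma-1 chain, common to most laminins, and its difference was −0.32 (SE 0.08, adjusted p = 0.0736). Other probe sets of Lamc1, at means of 10.39 and 7.26, gave 0.09 (SE 0.13) and 0.01 (SE 0.12). Lamb1 ranged from 11.15 to 11.80 in the control group, 10.997 to 11.51 in the pregnancy group and 11.52 to 11.68 in the hormone group. Lamb1, the laminin beta-1 chain, differed by −0.23 (SE 0.12, adjusted p = 0.262).

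Type IV collagen, the network-forming chain pair Col4a1 and Col4a2, had higher estimates after pregnancy on the probe sets used, and neither chain passed. Col4a2 read 12.28, 12.37, 11.79, 12.49 and 11.84 on the control arrays, 12.30, 12.51, 12.33, 12.20 and 12.31 on the pregnancy arrays, and 12.41, 12.79, 11.95, 12.53 and 12.34 on the hormone arrays. Control arrays 4 and 6 were the lowest of the 15, and the pregnancy arrays lay inside the control range apart from array 2. The difference was 0.18 (SE 0.15, adjusted p = 0.512) for Col4a2 and 0.03 (SE 0.11, adjusted p = 0.899) for Col4a1. Another Col4a1 probe set, at a mean of 12.18, gave −0.05 (SE 0.09, adjusted p = 0.755). Col4a1 ranged from 12.35 to 12.83 in the control group, 12.48 to 12.75 in the pregnancy group and 12.51 to 13.08 in the hormone group. Col15a1 ranged from 11.71 to 12.54 in the control group, 11.83 to 12.48 in the pregnancy group and 12.30 to 12.47 in the hormone group, at −0.14 (SE 0.16, adjusted p = 0.623). Col15a1 encodes a collagen that links basement membrane to the stroma beneath, and its groups overlapped. Another Col15a1 probe set, at a mean of 11.34, gave 0.09 (SE 0.22, adjusted p = 0.843). The median of the 5 basement membrane genes was −0.14, against −0.30 for the fibrillar collagens, and the difference between the roles was not tested.

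Among the proteoglycans, 4 of 5 had lower estimates after pregnancy (median −0.26), and 0 passed. Lum stood at 13.03, 12.95, 12.86, 13.07 and 13.03 on the control arrays, 12.23, 13.13, 12.43, 12.66 and 11.80 on the pregnancy arrays, and 12.67, 12.52, 12.94, 12.74 and 13.16 on the hormone arrays. The pregnancy arrays were spread widely: arrays 1, 3, 7 and 9 were below every control array and array 2 was above them. Lum encodes lumican, a small leucine-rich proteoglycan on collagen fibrils, and differed by −0.54 (SE 0.19, adjusted p = 0.135). Dcn read 14.08, 14.15, 14.05, 14.01 and 14.14 on the control arrays, 14.20, 14.10, 14.02, 14.03 and 14.13 on the pregnancy arrays, and 14.25, 14.22, 14.24, 14.08 and 14.09 on the hormone arrays. The groups overlapped, and the difference for Dcn, which encodes the fibril-binding proteoglycan decorin, was 0.01 (SE 0.06, adjusted p = 0.913). Bgn ranged from 11.08 to 11.60 in the control group, 10.91 to 11.34 in the pregnancy group and 11.06 to 11.39 in the hormone group, and Bgn, for biglycan, was at −0.26 (SE 0.10, adjusted p = 0.160). Fmod ranged from 9.39 to 10.11 in the control group, 9.29 to 9.97 in the pregnancy group and 9.43 to 9.94 in the hormone group. Vcan ranged from 8.08 to 9.28 in the control group, 7.48 to 9.09 in the pregnancy group and 8.54 to 9.05 in the hormone group. Fmod, for fibromodulin, was at −0.13 (SE 0.17, adjusted p = 0.652) and Vcan, for the large aggregating proteoglycan versican, at −0.35 (SE 0.28, adjusted p = 0.472), and both overlapped between all groups.

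The 3 lysyl oxidase genes have products that form the cross-links of collagen and elastin. On the probe sets used, all 3 had lower estimates after pregnancy (median −0.32), and 0 passed. Lox read 10.01, 10.60, 9.64, 9.79 and 9.76 on the control arrays, 9.41, 10.23, 9.35, 9.02 and 9.82 on the pregnancy arrays, and 10.09, 10.20, 10.61, 9.82 and 9.94 on the hormone arrays. Pregnancy arrays 1, 3 and 7 were below every control array, and arrays 2 and 9 were within the control range. The difference was −0.40 (SE 0.22, adjusted p = 0.310). Loxl1 ranged from 11.08 to 11.71 in the control group, 10.47 to 11.34 in the pregnancy group and 10.98 to 11.54 in the hormone group, and Loxl2 ranged from 11.50 to 12.09 in the control group, 11.42 to 11.79 in the pregnancy group and 11.59 to 12.44 in the hormone group. Loxl1, which acts on elastic fibres, was at −0.32 (SE 0.18, adjusted p = 0.312), and Loxl2, which also acts on basement membrane collagen, at −0.19 (SE 0.14, adjusted p = 0.440). Other probe sets of Loxl2, at means of 10.18 and 9.36, gave −0.13 (SE 0.16) and 0.23 (SE 0.18).

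Of the 5 genes of elastic fibres and microfibrils, 4 had lower estimates after pregnancy and 0 passed. Fbn1 read 12.83, 12.89, 12.74, 12.89 and 12.76 on the control arrays, 12.22, 12.76, 11.57, 12.04 and 11.97 on the pregnancy arrays, and 12.65, 12.61, 13.07, 12.82 and 12.52 on the hormone arrays. Pregnancy arrays 1, 3, 7 and 9 were below every control array, and array 2 was within the control range. Fbn1 encodes fibrillin-1, the backbone of microfibrils, and its difference of −0.71 (SE 0.17, adjusted p = 0.0697) was the second lowest of the 35, after Tnc. A second Fbn1 probe set gave −0.57 (SE 0.18, adjusted p = 0.105). Fbln1 ranged from 8.30 to 9.48 in the control group, 8.83 to 9.90 in the pregnancy group and 9.08 to 9.42 in the hormone group. Fbln1, for the microfibril-associated fibulin-1, had the highest estimate of the 35 at 0.48 (SE 0.26, adjusted p = 0.283), with overlapping groups. The differences were −0.32 (SE 0.16, adjusted p = 0.253) for Fbln2, for fibulin-2, −0.12 (SE 0.22, adjusted p = 0.762) for Eln, for tropoelastin, and −0.26 (SE 0.22, adjusted p = 0.492) for Fbn2, the fibrillin gene best known from embryonic tissue. Fbln2 ranged from 11.92 to 12.70 in the control group, 11.55 to 12.28 in the pregnancy group and 11.997 to 12.42 in the hormone group. Eln ranged from 8.61 to 9.88 in the control group, 8.54 to 9.40 in the pregnancy group and 8.97 to 9.34 in the hormone group.

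The adhesive and matricellular glycoproteins, which link cells to the matrix or modulate that contact, had a median of −0.40 after pregnancy, with 5 of 6 lower and 0 passing. Tnc read 7.36, 6.91, 7.51, 7.60 and 7.49 on the control arrays, 5.75, 6.73, 6.23, 7.08 and 6.07 on the pregnancy arrays, and 6.74, 6.22, 6.20, 6.87 and 7.09 on the hormone arrays. Control array 2 was the lowest of its group, and pregnancy array 7, at 7.08, was the only pregnancy value above it. Tnc encodes tenascin-C, a glycoprotein produced during tissue remodelling, and its difference of −1.003 (SE 0.24, adjusted p = 0.0712) was the largest in size among the 35. Postn encodes periostin, which binds collagen and helps its cross-linking. Postn read 13.83, 13.80, 13.89, 13.87 and 13.90 on the control arrays, 13.35, 13.76, 13.47, 13.61 and 13.004 on the pregnancy arrays, and 13.69, 13.77, 13.80, 13.84 and 13.79 on the hormone arrays. The pregnancy arrays did not overlap with the control arrays, and the difference was −0.42 (SE 0.10, adjusted p = 0.0739). A dimmer Postn probe set, at a mean of 8.07, gave −1.01 (SE 0.35, adjusted p = 0.128).

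Fn1 encodes fibronectin, a scaffold for matrix assembly. Fn1 ranged from 13.73 to 13.88 in the control group, 13.11 to 13.73 in the pregnancy group and 13.41 to 13.91 in the hormone group, with the nearest pregnancy and control arrays 0.0025 apart and a difference of −0.38 (SE 0.11, adjusted p = 0.0916). Sparc ranged from 13.99 to 14.26 in the control group, 13.85 to 14.12 in the pregnancy group and 14.04 to 14.37 in the hormone group, and Sparc, a collagen-binding matricellular protein, was at −0.09 (SE 0.08, adjusted p = 0.489). A second Sparc probe set gave 0.26 (SE 0.14, adjusted p = 0.281). Thbs1 ranged from 11.53 to 12.50 in the control group, 10.57 to 12.58 in the pregnancy group and 10.55 to 12.46 in the hormone group. Thbs2 ranged from 9.37 to 9.75 in the control group, 9.08 to 10.13 in the pregnancy group and 9.20 to 10.83 in the hormone group. Thbs1 and Thbs2 encode thrombospondins, and their differences were −0.43 (SE 0.36, adjusted p = 0.493) and 0.13 (SE 0.27, adjusted p = 0.802), with overlapping groups.

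Counted by array, 5 of the 35 members (Col6a3, Lamc1, Postn, Col12a1 and Fn1) were lower on every pregnancy array than on any control array, against 1.74% of all probe sets. The same held for 312 of the brightest probe sets of the 14233 named genes. The pregnancy rats differed among themselves. Pregnancy arrays 3 and 9 each had 24 of 35 members below all controls, arrays 1 and 7 each had 18, and array 2 had 6. Array 3 was the lymph-rich one (level 1.77), and arrays 7 and 9 were the muscle-rich ones (1.87 and 2.31). The lymph node and muscle levels were −0.96 and −1.40 on array 2, and 0.29 and −1.21 on array 1. The part of tissue make-up in these counts was not tested. The median member stood −0.41 and −0.44 from the control mean on arrays 3 and 9, −0.17 and −0.26 on arrays 1 and 7, and −0.01 on array 2. Array 2 was the highest of its group for 22 of the 35 members. The median SD over the members was 0.266 in the pregnancy group, 0.215 in control and 0.158 in the hormone group. Without pregnancy array 2, 3 members passed (Col5a2, Col6a3 and Fbn1), and without control array 2, 4 passed (Col6a3, Fbn1, Postn and Tnc). The share of all probe sets that passed in these fits is not given here, so no gain particular to the members can be read from them.

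**Figure D3:**
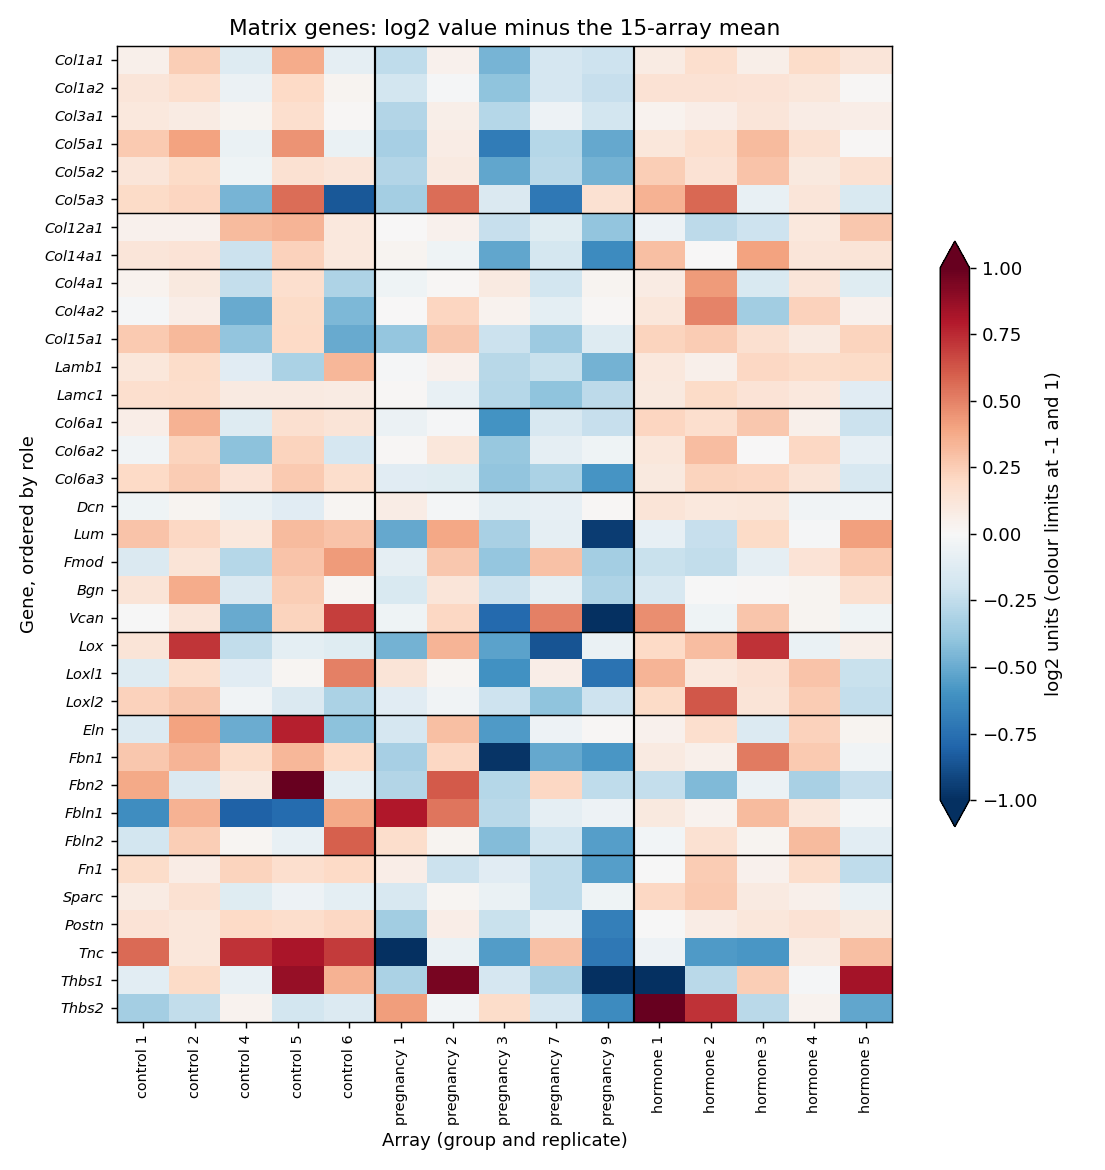
Log2 value of each member (rows, grouped by role) minus its mean over the 15 arrays, on each array (columns); blue is below and red above that mean, and colours stop at −1 and 1. Pregnancy arrays 3 and 9 are the bluest columns, with 24 of 35 members each below all controls, and pregnancy array 2 has 6. Pregnancy array 3 is lymph-rich and pregnancy array 9 is muscle-rich.

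After the hormone course no matrix gene passed the test, and the estimates lay on both sides of control. Of the 35, 16 had lower and 19 had higher estimates, the median was 0.03, equal to the 0.03 over all probe sets, and the range ran from −0.75 to 0.40. By limma 0 members passed, against 0.029% of all probe sets. At an unadjusted p under 0.05, 2 members were lower, Tnc and Fbn2, and 0 were higher, against 11% and 9.7% of all probe sets. The members' shares were below those of all probe sets. Without the lymph-rich arrays the median was −0.05 and 0 members were lower at that p, and without the muscle-rich arrays 1 was. These fits had fewer rats, and the share of all probe sets in them is not given.

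Tnc was at −0.75 (SE 0.24, adjusted p = 0.156), with hormone arrays 2 and 3 the lowest of the group at 6.22 and 6.20 and array 5, at 7.09, above control array 2. Fbn2 read 5.85, 5.33, 5.57, 6.55 and 5.37 on the control arrays, 5.18, 6.09, 5.19, 5.68 and 5.22 on the pregnancy arrays, and 5.23, 5.03, 5.41, 5.15 and 5.24 on the hormone arrays. The hormone arrays overlapped with control arrays 2 and 6, and the difference was −0.52 (SE 0.22, adjusted p = 0.208) for a probe set called present on 2 control arrays, 1 pregnancy array and 0 hormone arrays. A second, dimmer Fbn2 probe set was called present on 9 of the 15 arrays, with −0.95 after hormone (SE 0.33, adjusted p = 0.165) and −0.52 after pregnancy (SE 0.33, adjusted p = 0.364). Among the fibrillar collagens the smallest p was for Col5a3. Col5a3 read 11.23, 11.25, 10.57, 11.60 and 10.19 on the control arrays, 10.70, 11.59, 10.89, 10.33 and 11.19 on the pregnancy arrays, and 11.39, 11.61, 10.97, 11.16 and 10.89 on the hormone arrays. Its control arrays spanned the hormone arrays but for array 2, and the difference was 0.23 (SE 0.27, adjusted p = 0.626).

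In the remaining roles the member of smallest p after hormone was Col12a1 at −0.20 (SE 0.11, adjusted p = 0.309), Col4a2 at 0.25 (SE 0.15, adjusted p = 0.359), and Dcn at 0.09 (SE 0.06, adjusted p = 0.341). Col6a2 read 11.98, 12.23, 11.60, 12.23 and 11.85 on the control arrays, 12.03, 12.12, 11.63, 11.92 and 11.97 on the pregnancy arrays, and 12.13, 12.32, 12.02, 12.22 and 11.93 on the hormone arrays. The groups overlapped, and Col6a2 was at 0.14 (SE 0.12, adjusted p = 0.508). Loxl2 read 12.05, 12.09, 11.79, 11.68 and 11.50 on the control arrays, 11.71, 11.79, 11.61, 11.42 and 11.62 on the pregnancy arrays, and 12.01, 12.44, 11.95, 12.08 and 11.59 on the hormone arrays. Hormone array 2 was the highest of the 15 arrays and hormone array 5 lay near the lowest control, with a difference of 0.19 (SE 0.14, adjusted p = 0.441). Col6a3 was at −0.10 (SE 0.09, adjusted p = 0.519). The 3 cross-linking enzymes all had higher estimates (median 0.17), as did 4 of 5 basement membrane genes (median 0.12), and the medians of the other roles lay between −0.12 and 0.03.

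In the direct comparison of the exposures, most matrix genes had lower estimates after pregnancy than after hormone. Of the 35 members, 33 had lower estimates, with Fbn2 and Fbln1 the exceptions, and the median was −0.27, against −0.0021 over all probe sets. No single member reached the threshold: 0 passed by limma, against 0.00322% of all probe sets. At an unadjusted p under 0.05, 17 members were lower, against 5.52%, and 0 were higher, against 4.45%. Over the brightest probe set of each of the 14233 named genes the median was −0.015, and 906 were lower and 408 higher at that p. This comparison shares the pregnancy arrays with the one against control, so the counts are not independent of each other.

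The difference from hormone was −0.48 (SE 0.10, adjusted p = 0.342) for Col5a2, −0.41 (SE 0.09, adjusted p = 0.342) for Col6a3, −0.31 (SE 0.07, adjusted p = 0.342) for Col1a2 and −0.62 (SE 0.17, adjusted p = 0.342) for Fbn1. Col1a1, Col1a2, Col5a2 and Lamb1 were lower on every pregnancy array than on any hormone array, which is 4 of 35 against 1.21% of all probe sets and 188 of the brightest probe sets of the 14233 named genes. The nearest arrays for these 4 members were 0.0058 to 0.0225 apart, and pregnancy array 2 was the nearest in each of the 4 genes. Lamb1 differed by −0.34 (SE 0.12, adjusted p = 0.416) and Loxl2 by −0.38 (SE 0.14, adjusted p = 0.441). By role, the median was −0.38 for cross-linking enzymes, −0.32 for fibrillar collagens, −0.31 for type VI collagen and −0.28 for both basement membrane and fibril-associated genes. It was −0.26 for adhesive glycoproteins, −0.16 for elastic fibre genes and −0.14 for proteoglycans. Without the muscle-rich arrays 9 members were lower at an unadjusted p under 0.05, and without the lymph-rich arrays 13 were. These fits had fewer rats, and the share of all probe sets in them is not given.

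Taken as a mean of both exposures against control, 25 of 35 members had lower and 10 higher estimates, with a median of −0.14 against 0.03 over all probe sets. By limma 0 passed, against 0.238% of all probe sets. At an unadjusted p under 0.05, 11 were lower and 0 were higher, against 12.5% of all probe sets in each direction. Tnc was at −0.88 (SE 0.21, adjusted p = 0.0669) and Col6a3 at −0.31 (SE 0.08, adjusted p = 0.0713). In the authors' deposited table Tnc was called in this comparison with an adjusted p of 0.0408, against 1.36% of probe sets.

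Collagen chains of the same helix varied together between rats, and pairs that share no helix were not correlated as a background. Each array's deviation from its group mean was correlated over the 15 arrays for 7 chain pairs, with two-sided p-values from 100000 permutations within groups, adjusted over the 7. For Col4a1 and Col4a2, Pearson's r was 0.92 and Spearman's rho 0.91 (adjusted permutation p = 0.0007 and 0.00231), and r was 0.87 without the 2 arrays farthest from the median. For Col1a1 and Col1a2, r was 0.87 and rho 0.73 (adjusted permutation p = 0.00401 and 0.0161), with r of 0.79 without the farthest 2. For Col5a1 and Col5a2, r was 0.84 and rho 0.80 (adjusted permutation p = 0.00249 for both), with r of 0.74 without the farthest 2.

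The type VI chains also varied together. Col6a1 and Col6a2 had r of 0.76 and rho of 0.60 (adjusted permutation p = 0.00401 and 0.0331), and r was 0.59 without the farthest 2. Col6a1 and Col6a3 had r of 0.68 and rho of 0.74 (adjusted permutation p = 0.0252 and 0.0106), and r was 0.77 without them. Col6a2 and Col6a3 had r of 0.51 and rho of 0.66 (adjusted permutation p = 0.031 and 0.0106), and r was 0.52 without them. The laminin chains Lamb1 and Lamc1 did not pass, with r of 0.35 and rho of 0.42 (adjusted permutation p = 0.226 and 0.153), and r of 0.35 without the farthest 2. On the 11 arrays that were not lymph-rich, r ran from 0.38 for the laminin pair to 0.92 for the type IV pair. It was lower there for Col1a1 and Col1a2 (0.75) and for Col6a1 and Col6a2 (0.59), and higher for Col6a1 and Col6a3 (0.80). No correlation was taken without the muscle-rich arrays. The chains of a pair share each array's tissue and normalization, and whether the closeness is particular to partners was not tested. Col1a1 read 14.05, 14.25, 13.87, 14.37 and 13.91 on the control arrays. Eln, which shares no helix with it, read 8.96, 9.51, 8.61, 9.88 and 8.69, in the same order from lowest to highest.

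**Figure D4:**
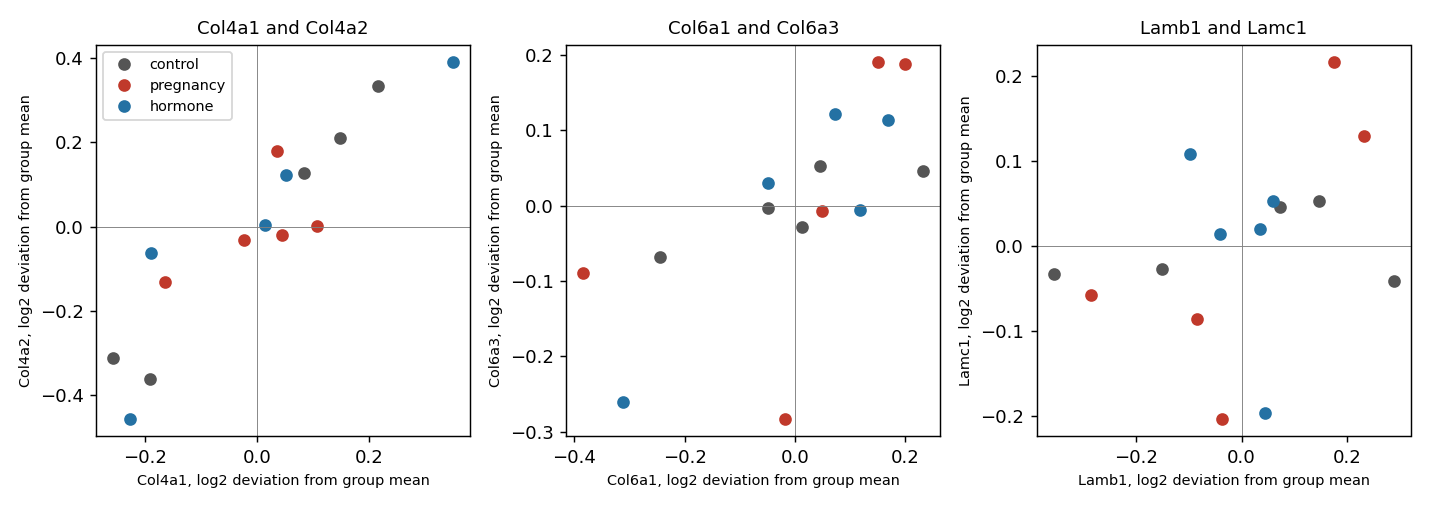
Deviation from the group mean, in log2, of chain pairs on the 15 arrays (points, coloured by group). Col4a1 and Col4a2 follow each other closely (r = 0.92), Col6a1 and Col6a3 less so (r = 0.68), and Lamb1 and Lamc1 loosely (r = 0.35).

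Genes that work with the matrix proteins were compared in 3 wider lists. Of 22 measured enzymes and chaperones of collagen synthesis, 14 had lower and 8 higher estimates after pregnancy, and 0 passed in either direction. P4ha2, a collagen prolyl hydroxylase subunit, was at −0.42 (SE 0.14, adjusted p = 0.12), and Pcolce, an enhancer of procollagen processing, at −0.43 (SE 0.16, adjusted p = 0.144). Of 22 matrix receptors, 11 had lower and 11 higher estimates and 0 passed. Mrc2, a receptor that takes up collagen, was at −0.49 (SE 0.14, adjusted p = 0.0977), and Itga7, an integrin subunit of muscle that binds laminin, at 0.46 (SE 0.21, adjusted p = 0.22). Of 49 other structural matrix genes, 37 had lower and 12 higher estimates, with a median of −0.20, and 0 passed. Col7a1, the anchoring fibril collagen, was at −0.49 (SE 0.15, adjusted p = 0.108), and Ltbp2, a microfibril-associated protein, at −0.65 (SE 0.20, adjusted p = 0.108). In the 2 other pairwise comparisons 0 of each list passed. At an unadjusted p under 0.05 after pregnancy, the counts were 2 lower and 0 higher for the synthesis list, 1 and 1 for the receptors, and 11 and 1 for the other structural genes. Against 10.6% lower and 11.3% higher over all probe sets, the lower counts of 2 of 22 and 1 of 22 were below the background share and 11 of 49 was above it. Pregnancy against hormone gave lower estimates for 20 of 22 synthesis genes, 10 of 22 receptors and 36 of 49 other structural genes. In that comparison the counts at that p were 7 lower and 0 higher, 2 and 2, and 14 and 0. All probe sets gave 5.52% lower and 4.45% higher there.

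Markers of the cell types in the gland were summed beside the matrix genes. The mean level of 18 fibroblast markers ranged from −0.17 to 0.13 on the control arrays, −0.26 to 0.14 on the pregnancy arrays and −0.05 to 0.30 on the hormone arrays. After pregnancy 12 of the 18 had lower estimates (median −0.08), and 0 passed. Against hormone, 17 of 18 were lower (median −0.18). Their part in the matrix differences was not tested. Tcf21 was called present on none of the 15 arrays. Of 13 luminal, 10 basal and 10 endothelial markers, 9, 5 and 5 had higher estimates after pregnancy, and 6, 5 and 8 after hormone. Against hormone, 13, 6 and 3 were higher, with 0 passing throughout. At an unadjusted p under 0.05 against control, 3 luminal markers were higher and 1 endothelial marker lower after pregnancy. After hormone, 3 endothelial markers were higher and 1 lower. All probe sets gave 11.3% and 10.6%, then 9.7% and 11%.

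Adipocyte markers were higher in estimate than control for 13 of 14 genes after pregnancy (median 0.35) and 14 of 14 after hormone (median 0.46), with 0 passing. Their level ranged from −0.61 to 0.17 on the control arrays, −0.16 to 0.35 on the pregnancy arrays and −0.06 to 0.44 on the hormone arrays. Mast cell markers were lower in estimate after pregnancy for 8 of 8 genes (median −0.42), with 0 passing. Their level ranged from 0.01 to 0.41 on the control arrays, −0.53 to −0.0036 on the pregnancy arrays and −0.06 to 0.23 on the hormone arrays. The part of mast cells in the matrix differences was not tested. Macrophage markers had higher estimates for 11 of 11 genes after pregnancy (median 0.20) and 10 of 11 after hormone (median 0.27). Of these Itgam, an integrin subunit of myeloid cells, passed after pregnancy, close to the threshold, at 0.44 (SE 0.08, adjusted p = 0.0449). After hormone 0 passed. The shares of all probe sets called were 0.197% and 0.029%. The macrophage level ranged from −0.30 to −0.06 on the control arrays, −0.06 to 0.31 on the pregnancy arrays and −0.21 to 0.28 on the hormone arrays. The part of macrophages in the matrix differences was not tested.

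Lymph node markers had lower estimates for 17 of 17 genes after pregnancy (median −0.81) and 16 of 17 after hormone (median −1.89), with 0 passing. At an unadjusted p under 0.05, 0 and 13 of the 17 were lower, against 10.6% and 11% of all probe sets. Their level ranged from −1.25 to 2.20 on the control arrays, −1.04 to 1.77 on the pregnancy arrays and −1.35 to −0.17 on the hormone arrays. Skeletal muscle markers had higher estimates for 15 of 15 genes after pregnancy (median 0.82) and after hormone (median 0.77), with 0 passing. Their level ranged from −1.66 to 0.51 on the control arrays, −1.40 to 2.31 on the pregnancy arrays and −1.10 to 3.76 on the hormone arrays. At an unadjusted p under 0.05, 5 and 9 of 14 adipocyte markers were higher after pregnancy and after hormone. The counts were 2 and 5 of 11 for macrophage, 1 and 4 of 18 for fibroblast and 1 and 0 of 15 for muscle markers. All probe sets gave 11.3% and 9.7%. Of 8 mast cell markers 6 and 0 were lower, against 10.6% and 11%. With the adipocyte level as a covariate, Col6a3 was at −0.50 (adjusted p = 0.16), with the muscle level at −0.50 (adjusted p = 0.0805), and with the lymph level at −0.54 (adjusted p = 0.0275).

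**Figure D5:**
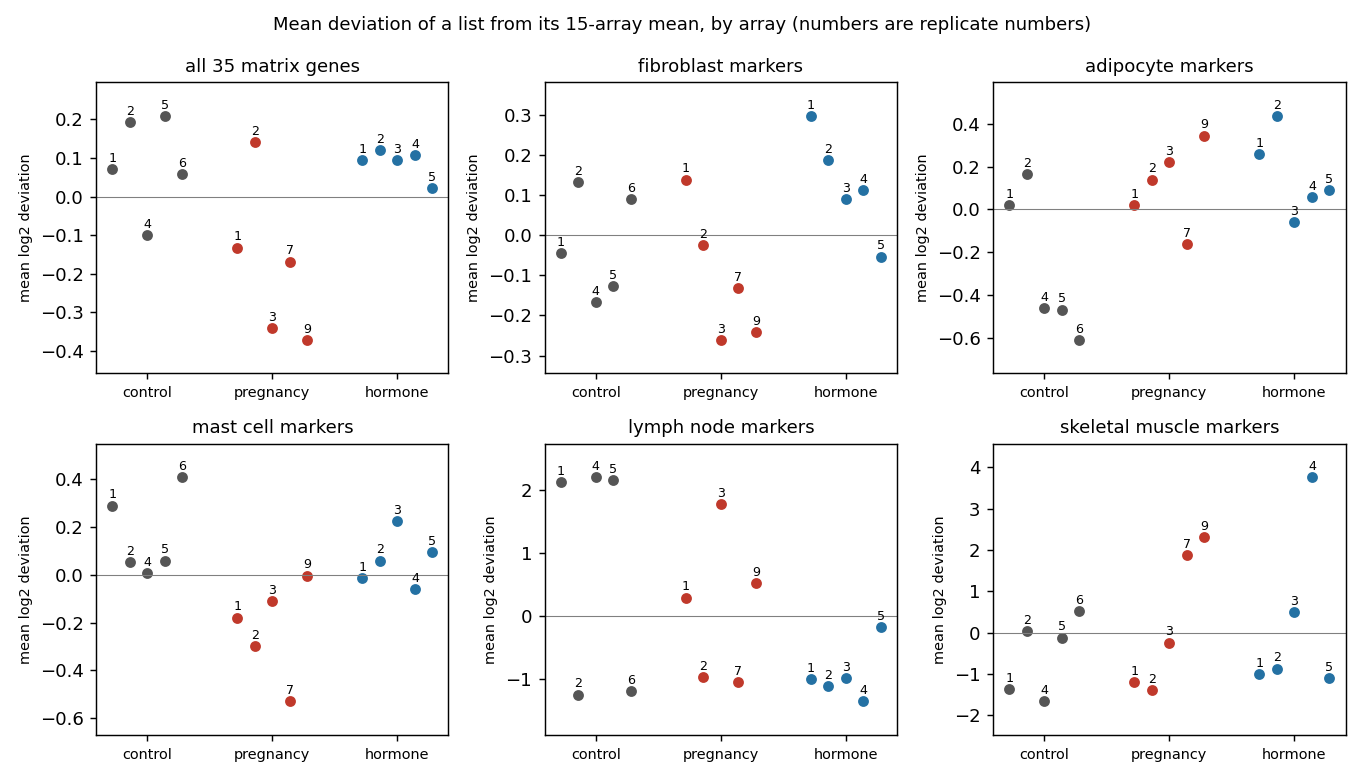
Mean log2 deviation of the 35 matrix genes and of the fibroblast, adipocyte, mast cell, lymph node and skeletal muscle marker lists from their mean over the 15 arrays (points, coloured by group). The matrix genes lie between −0.37 and 0.14 on the pregnancy arrays and between −0.10 and 0.21 on the control arrays, and the lymph node and muscle lists spread far more widely.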

How the data were processed

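Total RNA of 15 rat mammary glands was extracted with Trizol, amplified from 80 ng with a NuGEN kit and hybridized to Affymetrix rat arrays, per the labels' protocols. The authors deposited log2 intensities, summarized and quantile-normalized by RMA with the affy package, per the submitters' processing notes and the labels' protocols, and MAS5 detection calls with a detection p-value for each probe set. The tools' versions are not stated in those notes. The authors' deposited table also holds their log2 fold changes and p-values, which are quoted only where named. RMA makes the arrays share 1 distribution of values, so a shift common to most genes would be removed. The 2 deposited tables held equal values. They also hold 5 arrays that match no labelled sample, in 15 columns of values, which were not used.

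The 31099 probe sets less 57 controls gave 31042, of which 23369 name a gene. They were fitted with limma 3.58.1 in R 4.3.3 as 1 model with a mean for each group and no block (12 residual and 2.70 prior degrees of freedom), and p-values were adjusted by Benjamini-Hochberg within each comparison, with a threshold of 0.05. Array medians lay between 7.70 and 7.77. For probe intensities, 5 arrays a group limit the precision. Summaries used Python 3.11.15, pandas 2.3.3 and numpy 2.4.6.

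The members, marker lists and wider lists were chosen with earlier results of these data known, so counts over them are descriptions. Values on every array are given for members that passed and for the member of smallest p in each role, after pregnancy and after hormone; from the wider lists, those that passed or else the 2 of smallest p after pregnancy are named. Other members are given by ranges, except Postn, whose per-array values were added after its values were seen. Alternatives covered centring, a filter on detection, array weights, marker levels as covariates, the 2 groups alone, a replicate block, arrays left out, probe set means and a robust fit.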

Additional observations from a re-analysis of the deposited data

Results flagged for a closer look

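Of 105 sets of 5 arrays (35 members in 3 groups), 2 had an array whose gap to its nearest neighbour exceeded 0.71 of the group's range, the limit for 5 samples that chance passes in about 1 of 20 sets. Col1a2 was lowest in hormone replicate 5, at 13.96 on the log2 scale, with the next array at 14.05 and a gap of 0.732 of the range. Col14a1 was lowest in control replicate 4, at 12.06, with the next array at 12.38 and a gap of 0.716 of the range.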

How the results depend on the processing

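After pregnancy, 1 member passed in the reported fit. The count was 0 with each array centred on its median, with the muscle or the adipocyte level as a covariate, with the 2 groups alone, without the lymph-rich arrays, without the muscle-rich arrays and with the mean of all probe sets of a gene. It was 3 with array weights (Lamc1, Col6a3 and Tnc) and 4 with the lymph level as a covariate (Col1a2, Col5a2, Col6a3 and Fbn1), and from 0 to 4 with 1 array left out. The reported fit did not pair the rats by replicate number. Deviations of same-numbered arrays correlated at −0.317 to 0.415 over 15521 probe sets, highest for control 2 and pregnancy 2. Differently numbered arrays were not compared, so these values cannot tell whether the numbers pair the rats. With a replicate block the count after pregnancy was 0, with Col6a3 at −0.46 (adjusted p = 0.377). After hormone, the count lower at an unadjusted p under 0.05 was 2, and became 1 with the detection filter, the replicate block or without the muscle-rich arrays, 0 with the adipocyte level or without the lymph-rich arrays, and 1 to 3 with 1 array left out (1 without control 1 or 5 or hormone 2 or 4). Against hormone, the pregnancy count of 17 was 9 without the muscle-rich arrays and 14 to 19 with 1 array left out, and 0 to 1 passed (Col5a2 without pregnancy 2). For the mean of both exposures, 1 passed with array weights (Tnc), and 0 to 2 with 1 array left out (Col6a3 and Tnc without control 2). The causes were not tested. These counts are given without the share of all probe sets in the same fit, so a change over the whole array is not told apart. Over these alternatives the median of the members ran from −0.35 to −0.21 after pregnancy, −0.06 to 0.08 after hormone, −0.36 to −0.22 between the exposures and −0.23 (lymph level as a covariate) to −0.09 for the mean of both exposures, reported as −0.14. Whether the brightest signals were near saturation was not tested, and the Fbn2 probe set used was called present on 3 of 15 arrays.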

Other observations

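Over 25 other probe sets of the members that were called present on 5 or more arrays, 17 had the direction of the brightest probe set after pregnancy and 0 passed. Hormone array 5 was the lowest of its group for 15 of the 35 members, and control array 4 for 17. Control array 5 was the highest of its group for 16.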
